A study of Mus musculus with 6 samples.

Results

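The cells described here were the mural cells of mouse tibialis anterior muscle, the pericytes and vascular smooth muscle cells that wrap blood vessels. They were chosen by their own counts of unique molecular identifiers (UMIs, 1 per captured RNA molecule): at least 1 UMI of Rgs5, at least 1 of Acta2 or Notch3, and none of the endothelial genes Cdh5 and Pecam1, the fibro-adipogenic progenitor gene Pdgfra or the leukocyte gene Ptprc. Of 11207 cells in 6 libraries, 166 met this rule. The levels of these genes in the chosen cells are therefore a description.

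The study asked how thyroid hormone deficiency alters repair after muscle injury. All mice were males of 3 to 5 months on a B6;129 background that carried the Fucci2aR allele tm1(Fucci2aR)Jkn, a Cre-dependent cell cycle reporter, at Gt(ROSA)26Sor, and per the study's methods those used for sequencing had no Cre, so no reporter signal marks the cells. The hypothyroid groups ate iodine-deficient chow with 0.15% propylthiouracil (PTU, a blocker of thyroid hormone synthesis) from before injury to the end, and the control groups ate a matched diet. Cardiotoxin, a snake venom toxin that kills muscle fibers, was injected at 50 µg/ml into the right tibialis anterior, and whole muscle was taken before injury (day 0) or on day 5 or day 14. Each of the 6 conditions was 1 library of cells pooled from 3 mice, made with the 10x 3' kit, so no value has a replicate and no difference between conditions was tested. Intervals are 95% and cover counting error only. Mouse, dissociation, library and condition cannot be told apart.

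Pericytes sit on capillaries and smooth muscle cells coat arterioles and larger vessels, and both share a lineage that depends on platelet-derived growth factor signalling through the receptor Pdgfrb and on the receptor Notch3. Smooth muscle constricts with a myosin encoded by Myh11 and an actin encoded by Acta2. Pericytes carry little of this machinery and are rich in an ATP-sensitive potassium channel formed by Kcnj8 and Abcc9. Rgs5, a brake on G protein signalling, marks both.

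The mural cells numbered 8 of 1152 in the control day 0 library, 21 of 2428 at day 5 and 102 of 3294 at day 14. In the hypothyroid libraries they numbered 6 of 528, 14 of 2155 and 15 of 1650 at the same times. The control day 14 library thus gave most of them, and the day 0 libraries and both later hypothyroid libraries had fewer than 20 each. No barcode was shared among the 166 cells, and 12 were shared among all cells. Library totals ran from 2283739 to 23496529 UMIs. The median mural cell held 1618 to 5013 UMIs in 5 libraries, and 12406.5 in the hypothyroid day 5 library, where the other cells also had the highest median, 8018.

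Part of the chosen cells went against the label. Of the 166, 28 had a single Rgs5 UMI and 4 had 2, none had 3, and the next lowest had 4. The 32 cells with 1 or 2 Rgs5 UMIs were deep, with a median of 8313.5 UMIs against 2087.5 in the other 134. They nevertheless held fewer other mural genes, a median of 10.5 of 41 against 18. Their summed mural gene level had a median of 6387 CPM (UMIs of the gene in each 1000000 UMIs), against 25520 CPM. Of the 32, 21 had UMIs of at least 4 genes from at least 1 of 5 marker lists of other cell types, against 35 of the 134. The lists with most such cells were fibro-adipogenic (13 of 32 against 25 of 134), tenocyte (6 against 2) and myogenic (5 against 1). These cells were 19 of 102 in the control day 14 library and 9 of 14 in the hypothyroid day 5 library, and 0 to 2 in the others. Pax7, a muscle stem cell gene, had a UMI in 6 of the 14 hypothyroid day 5 members, of which 1 had at least 3 Rgs5 UMIs. No member of another library had Pax7. Hypothyroid day 5 values over all members include these Pax7 cells. Results are therefore given for all members and for the stricter set of 134 cells with at least 3 Rgs5 UMIs. Whether the 32 cells were mural cells was not tested.

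**Figure D1:**
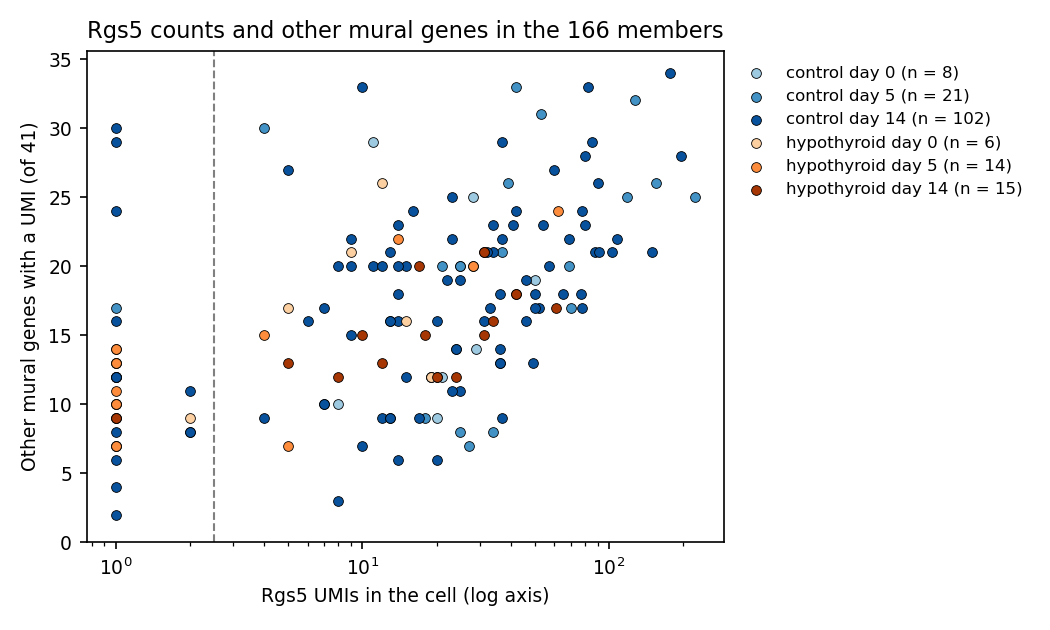
Each point is 1 of the 166 mural cells, with its Rgs5 UMIs on a log axis (x) and the number of 41 other mural genes with a UMI (y), coloured by library; the dashed line separates cells with 1 or 2 Rgs5 UMIs from those with 3 or more. The cells left of the line number 32 and lie mostly below the others, with a median of 10.5 genes against 18.

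The exclusion genes also removed Rgs5-rich cells. Of 468 cells with Rgs5 and Acta2 or Notch3, 302 were removed, 269 of them through Cdh5 or Pecam1, 51 through Pdgfra and 22 through Ptprc. The removed cells of the control day 14 library were 185 in number, with a median of 7809 UMIs against 2446 in the mural cells kept. They held 65.02% of that library's Rgs5 UMIs, and the kept cells 16.79%. In the hypothyroid day 14 library the removed cells held 56.29% and the kept cells 6.01%. Cldn5, a tight junction gene of endothelium, was at 13.12 CPM (5 UMIs) in the kept control day 14 cells. No doublet caller was run, and whether the removed cells were mural cells joined to endothelium was not tested.

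Mural cells were a larger share of the control day 14 library than of any other. Their share was 3.097% there (exact Clopper-Pearson interval 2.532 to 3.746%), against 0.6944% (0.3003 to 1.364%) at day 0 and 0.8649% (0.5362 to 1.319%) at day 5. In the hypothyroid libraries the share was 1.136% (0.4181 to 2.457%) at day 0, 0.6497% (0.3556 to 1.088%) at day 5 and 0.9091% (0.5097 to 1.495%) at day 14. Over all members the control day 14 interval lay above the other 5, whose intervals all overlapped each other. In the stricter set the control day 14 interval (2.012 to 3.114%) overlapped that of hypothyroid day 0 (0.3082 to 2.196%). Without the exclusion genes both day 14 libraries stood above the rest, at 8.713% in the control and 5.03% (4.026 to 6.198%) in the hypothyroid library against 1.215 to 2.018% elsewhere.

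At day 14 the hypothyroid share was 0.2936 times the control share (interval 0.1585 to 0.5073), and 0.3367 times (0.1765 to 0.5973) in the stricter set. Cells with at least 10 Rgs5 UMIs, counted without exclusion genes, gave a smaller gap: 60 of 1650 against 223 of 3294, a ratio of 0.5371 (0.397 to 0.7172). That count was chosen after the values were seen. At day 5 the ratio was 0.7511 (0.3533 to 1.549) for all members and 0.2965 (0.08652 to 0.821) in the stricter set, so it turned on the cells with 1 or 2 Rgs5 UMIs. At day 0 it was 1.636 (0.468 to 5.378), an interval that holds both a lower and a higher share. Fewer captured cells and fewer cells in the muscle cannot be told apart.

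Endothelial cells, taken as cells with both Cdh5 and Pecam1 and none of Rgs5, Pdgfra and Ptprc, also took a smaller share of the hypothyroid libraries. Their hypothyroid over control ratio was 0.5035 (0.2446 to 0.9558) at day 0, 0.2665 (0.1594 to 0.4278) at day 5 and 0.585 (0.4616 to 0.7357) at day 14. For each 100 endothelial cells there were 30.82 mural cells in the control and 15.46 in the hypothyroid day 14 library. The order was the opposite at day 0 (15.38 control, 50 hypothyroid) and day 5 (22.58 and 63.64). The part of vessel cells as a whole in the mural difference was not tested.

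**Figure D2:**
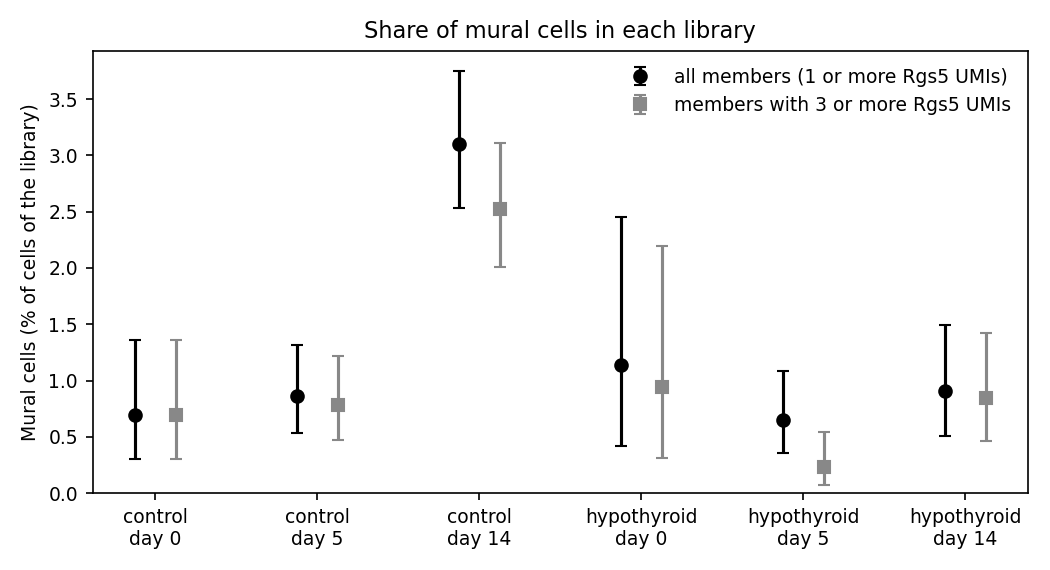
Share of mural cells (y, percent of the cells of each library) in the 6 libraries (x), for all 166 members (black circles) and the 134 with at least 3 Rgs5 UMIs (grey squares), with exact 95% Clopper-Pearson intervals as bars. The control day 14 library stands at 3.097% and the others between 0.6497% and 1.136% for all members.

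The mural label was checked in the control day 14 library, the only one with over 25 members, by summing UMIs over its 102 mural cells and over its other 3192 cells. A gene entered with at least 30 UMIs over both sums, and was counted as past 2-fold by its ratio alone. Of 11797 genes, 12.1% were past 2-fold higher and 21.3% past 2-fold lower in mural cells. Genes that the rule did not use followed the label: 21 of 21 contractile genes were past 2-fold higher, as were 8 of 10 pericyte genes, 9 of 10 shared mural genes and 18 of 23 genes of vascular tone, with median ratios of 6.535, 5.656, 5.843 and 6.964. In the other direction were 8 of 10 endothelial, 9 of 11 fibro-adipogenic and 11 of 11 immune genes. The remaining lists of other cells followed the label less. Of 7 myogenic genes 2 were past 2-fold higher and 2 lower, and of 10 muscle fiber genes 2 and 0. Of 7 glial genes 1 was higher and 5 lower, of 6 tenocyte genes 0 and 1, and of 5 erythroid genes 0 and 2. These counts come from the cells the rule picked and are a description.

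The gene with the highest lower bound of its ratio was Olfr78, an olfactory receptor gene also expressed outside the nose, at 196.7 CPM in mural cells and 4.973 CPM in the others, a ratio of 39.56 (28.48 to 54.89), with UMIs in 26 cells. A second olfactory receptor, Olfr558, stood at 21.82 times the other cells. Myh11 followed at 2062 against 75.78 CPM, a ratio of 27.21. Lmod1, an actin filament nucleator of smooth muscle, was at 27.84 times. Tagln, an actin-binding protein of smooth muscle, was at 21.44 times, Myl9, the regulatory light chain of smooth muscle myosin, at 22.52 times, and Mylk, the kinase that activates it, at 18.81 times. Ano1, a calcium-activated chloride channel, was at 21.99 times, and the subunits of the nitric oxide receptor Gucy1a1 and Gucy1b1 at 13.63 and 11.71 times. Other than the olfactory receptors, the genes named so far belong to contraction or its control. They are a selection: Rasl11a (25.65 times), Sncg (24.83), Tesc (23.31) and Gm13889 (15.69) ranked among them and belong to none of the lists. Muscle fiber genes were present in the mural cells too, with a median of 7 of 10 per cell in the stricter set at control day 14 and 2 at control day 5, and a median ratio to the other cells of 1.894. Their source was not tested.

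The 3 genes of the rule varied among libraries. Rgs5 stood at 7174, 7798 and 8753 CPM in control mural cells at days 0, 5 and 14, and at 4382, 578.9 and 7777 CPM in hypothyroid cells. The low hypothyroid day 5 value came with the 9 cells of 1 or 2 UMIs, and was 2342 CPM without them. Of the 5 cells then left, 1 held 40071 of 48258 UMIs. Per cell, Rgs5 had a median of 20 UMIs in both day 14 libraries, with highest values of 196 in the control and 61 in the hypothyroid one. Notch3 was at 525.8, 366.4 and 503.6 CPM in control and at 777.4, 118.6 and 450.8 CPM in hypothyroid mural cells. Both day 14 libraries thus had like levels of Rgs5 and Notch3. Acta2 was at 3606, 2972 and 4168 CPM in control and at 14420, 820.9 and 270.5 CPM in hypothyroid mural cells. A single cell gave 83.33% of the hypothyroid day 0 Acta2, and the hypothyroid day 14 level was the lowest of the 6.

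The members were also divided by Myh11. This gene, which the rule did not use, had a UMI in 3 of 8, 12 of 21 and 56 of 102 control mural cells at days 0, 5 and 14, and in 4 of 6, 3 of 14 and 5 of 15 hypothyroid ones. The share was 54.9% (exact interval 44.74 to 64.78%) at control day 14 and 33.33% (11.82 to 61.62%) at hypothyroid day 14, and 61.45% (50.12 to 71.93%) and 35.71% (12.76 to 64.86%) in the stricter set. These intervals overlap, so a difference in share was not detectable at this depth. In fibro-adipogenic cells of the control day 14 library, where Myh11 is not expected, 2.758% of cells had a UMI at a median depth of 5891 UMIs, and the mural cells there had a median of 2446. The cut at 1 UMI is not sharp: of the 83 stricter cells at control day 14, 32 had no Myh11, 10 had 1 UMI and 41 had more, up to 143.

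**Figure D3:**
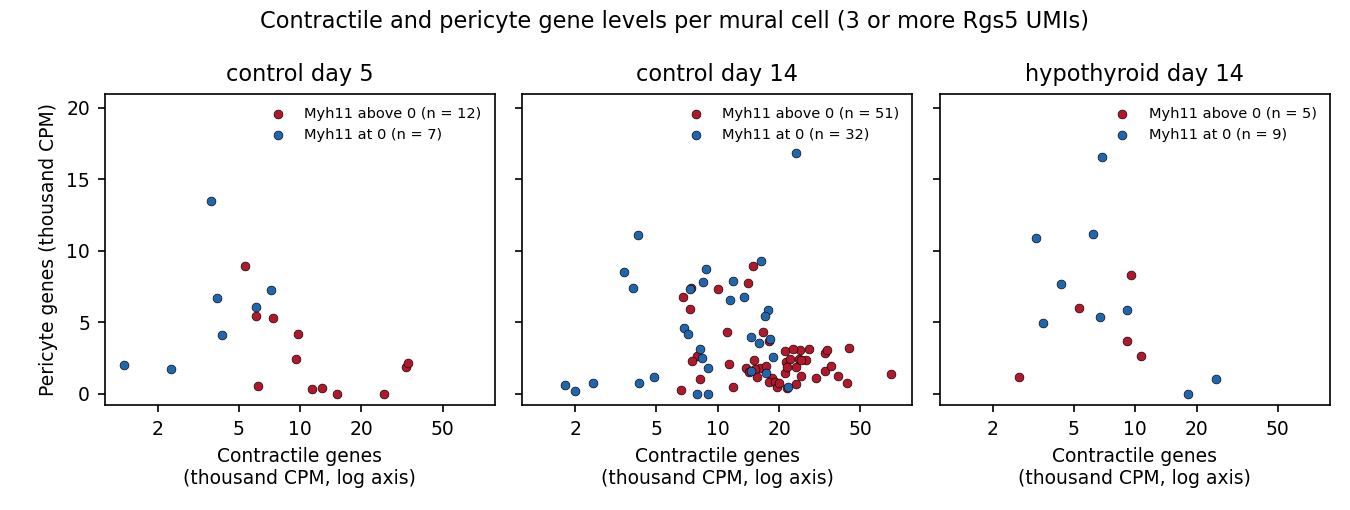
Each point is a mural cell with at least 3 Rgs5 UMIs, with its summed contractile gene level (x, CPM divided by 1000, log axis, Myh11 included) and summed pericyte gene level (y, CPM divided by 1000), in the control day 5 (19 cells), control day 14 (83) and hypothyroid day 14 (14) libraries; colour gives Myh11 above or at 0. Cells with the highest contractile level in the control libraries carry Myh11 and have pericyte levels near the bottom of the range.

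The 51 Myh11-positive and 32 Myh11-negative cells of the stricter control day 14 set were compared by summed UMIs. Across 1556 genes, 18.9% were past 2-fold higher and 8.23% past 2-fold lower in the Myh11-positive cells. The positive cells were deeper, with a median of 2534 against 1300 UMIs. Of the 32 negative cells, 6 carried Myod1, the myogenic factor, with 180 UMIs in all, and no positive cell did. These 6 cells were deep, with a median of 4897 UMIs against 1179 in the other 26, and held 47.76% of the UMIs of the negative sum. Their summed mural gene level had a median of 8494 CPM against 25860 CPM in the other 26, and both myogenic genes that entered were past 2-fold lower in positive cells. Ratios are therefore also given without the 6 cells, mainly where they differ by over 1.5 times or cross 2-fold, an alternative chosen after the values were seen. Without them 21.7% of 1334 genes were past 2-fold higher and 7.5% lower. Myh11 chose the groups and is left out of every count below. The comparison was chosen after the values were seen and has no test.

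The contractile genes were higher in Myh11-positive cells, 10 of 17 past 2-fold and none lower, with a median ratio of 2.82 (10 of 17 and 2.292 without the Myod1 cells). Acta2, a gene of the rule, is among the 17, and its ratio is a description. Acta2 was at 5445 CPM in positive and 406.7 CPM in negative cells, a ratio of 13.39 (9.321 to 19.94), and 7.77 (5.31 to 11.85) without the Myod1 cells. Tagln was at 3696 and 244 CPM, a ratio of 15.15 (9.514 to 25.7), and 8.377 (5.196 to 14.46) without those cells. Mustn1, a small muscle protein, was at 11.82 times (7.203 without them), Actn1, an actin crosslinker, at 6.204 times, and Flna, another, at 3.685 times (2.265). Lmod1 had 53 UMIs against 1, a ratio of 19.93 (3.425 to 801.8), and 10.41 (1.789 to 418.9) without those cells. The tropomyosins Tpm1 and Tpm2, which lie along actin in most contractile cells, differed less, at 1.667 and 1.866 times. Of the shared mural genes, Myl9 (8.648 times), Mylk (7.309 times) and the transcription factor Foxs1 (10.9 times, 29 UMIs against 1) were past 2-fold. Mylk was at 4.364 and Foxs1 at 5.697 (0.9445 to 232.7) times without the Myod1 cells. Rgs5 itself had a ratio of 0.9878 (0.9149 to 1.067) and Pdgfrb of 0.6908 (0.4706 to 1.026). Without the Myod1 cells both were lower in Myh11-positive cells, at 0.6348 (0.5844 to 0.6902) and 0.4434 (0.2943 to 0.6804) times.

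Serum response factor drives many contractile genes through the CArG box, a short motif of paired C, a run of A or T and paired G. The box was searched in the 300 bases before the annotated start of each gene in the mm39 mouse genome. It reads alike on both strands, and 181 of 12152 promoters (1.49%) held it. Among the lists, 2 of 22 contractile (9.09%), 1 of 12 shared mural (8.33%), 1 of 20 immediate early (5%) and 0 of 10 pericyte promoters did. The 3 that belong to contractile or shared mural genes are shown because they are the promoters with a match beside the split, 5′ to 3′ on the gene's strand, with the box in capitals. They are those of Tagln (chr9:45847405-45847704, minus strand), Vcl (chr14:20979166-20979465, plus strand) and Cald1 (chr6:34575135-34575434, plus strand).
Tagln: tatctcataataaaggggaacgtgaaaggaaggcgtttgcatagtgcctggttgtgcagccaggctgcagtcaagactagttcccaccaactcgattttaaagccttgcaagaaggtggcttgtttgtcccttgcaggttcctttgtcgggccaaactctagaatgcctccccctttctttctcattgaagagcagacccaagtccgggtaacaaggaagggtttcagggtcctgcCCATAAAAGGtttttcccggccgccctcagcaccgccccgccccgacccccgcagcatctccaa
Vcl: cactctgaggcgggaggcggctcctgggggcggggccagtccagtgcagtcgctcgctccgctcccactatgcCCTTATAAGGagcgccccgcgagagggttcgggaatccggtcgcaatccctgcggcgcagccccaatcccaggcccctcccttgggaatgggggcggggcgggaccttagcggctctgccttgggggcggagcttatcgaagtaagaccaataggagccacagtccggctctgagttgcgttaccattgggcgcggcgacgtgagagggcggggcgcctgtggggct
Cald1: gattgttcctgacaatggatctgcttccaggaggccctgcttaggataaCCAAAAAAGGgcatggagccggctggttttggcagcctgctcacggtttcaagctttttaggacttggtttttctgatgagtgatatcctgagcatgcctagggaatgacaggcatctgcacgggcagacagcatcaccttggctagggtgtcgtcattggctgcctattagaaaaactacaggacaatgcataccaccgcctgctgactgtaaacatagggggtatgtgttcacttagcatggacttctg
The box began 64 bases before the start of Tagln, 227 before that of Vcl and 251 before that of Cald1. Of these 3 genes only Tagln was past 2-fold between the groups: Vcl, which anchors actin to the membrane, was at 1.156 times and Cald1, an actin-binding brake on contraction, at 1.695 times. A match describes these letters and is not a measured binding site.

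Pericyte genes were lower in Myh11-positive cells, 6 of 8 past 2-fold and none higher, with a median ratio of 0.3628. Without the Myod1 cells 4 of 5 were past 2-fold lower. The potassium channel pair Kcnj8 and Abcc9 stood at 0.1962 (0.08896 to 0.4108) and 0.2663 (0.1664 to 0.422) times the Myh11-negative level, and at 0.1684 (0.07114 to 0.3922) and 0.1908 (0.1155 to 0.315) without those cells. Vtn, the adhesive protein vitronectin, was at 0.2911 times (1.296 with each cell thinned to 1000 UMIs), Higd1b, a mitochondrial protein gene, at 0.329 times (0.1833 without the Myod1 cells), Art3 at 0.3965 times and Steap4, a metal reductase, at 0.4672 times. The mitochondrial genes Ndufa4l2 (1.81) and Cox4i2 (0.5954, interval 0.2744 to 1.345) were not past 2-fold; Ndufa4l2 was at 1.12 and Cox4i2 at 0.4147 (0.1788 to 1.041) without the Myod1 cells. This split of the pericyte list depended on the stricter set: over all 102 cells, 1 of 8 was past 2-fold higher and 1 lower, where 18.6% and 11.7% of 2158 genes were. Over all members, 10 of 11 fibro-adipogenic genes were also past 2-fold lower in Myh11-positive cells, and over the stricter set none of 4.

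Genes that set vascular tone were higher in Myh11-positive cells, 10 of 13 past 2-fold and none lower, with a median ratio of 2.482. Without the Myod1 cells 6 of 12 were, with a median of 1.883. The endothelin receptors Ednra and Ednrb were at 4.387 and 5.202 (2.899 to 10.27) times, and at 3.438 and 3.261 without those cells. Prkg1, the kinase through which nitric oxide relaxes smooth muscle, was at 5.766 (1.853 to 28.98) times, and Pde3a, which breaks down cyclic nucleotides, at 4.011 times (2.095 without the Myod1 cells). Ppp1r12b, a subunit of myosin phosphatase, was at 4.262 times (2.226). Gucy1a1 and Gucy1b1 were at 2.126 and 2.233 times, but at 1.239 and 1.555 without the Myod1 cells, and Gucy1a1 was at 0.8102 with each cell thinned to 1000 UMIs.

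Of Notch genes 3 of 4 were past 2-fold higher, and 2 of 4 without the Myod1 cells. Jag1, a Notch ligand, was at 5.358 times (11.2 without them), Hes1, a Notch target, at 3.03 times (1.794), and Nrarp, a Notch feedback gene, had 42 UMIs against 1, a ratio of 15.79. Heyl, another target, had 8 UMIs against 18 and was too low to enter. Notch3 was at 1.675 times (1.111 without the Myod1 cells).

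Basement membrane genes divided between the groups. Lamb2 and Lama5, laminin chains, had 75 and 38 UMIs in Myh11-positive cells against 1 each, ratios of 28.2 and 14.29. Without the Myod1 cells Lamb2 was at 14.73 (2.565 to 589.6) times and Lama5 had 38 UMIs against 0. Col4a1 and Col4a2, the main collagen chains of basement membrane, were at 0.6325 and 0.5849 times, and Nid1, which links laminin to that collagen, at 0.3008 times. Col4a1 and Col4a2 were past 2-fold lower without the Myod1 cells, at 0.4312 and 0.4125 times. Growth factor genes also divided: Fgf1 (11.66 times), Igfbp5 (4.888), Igfbp7 (3.865), Epas1 (3.483) and Pdgfa (2.489) were higher, and Nrp1 (0.327) and the chemokine Cxcl12 (0.4894) lower. Without the Myod1 cells Fgf1 was at 6.09 (1.015 to 248.2), Igfbp7 at 2.171, Pdgfa at 9.102 and Cxcl12 at 0.3222 times. Of immediate early genes, which respond within minutes to stimulation and to tissue dissociation alike, 15 of 20 were past 2-fold higher, with a median of 2.726, and 12 of 20 without the Myod1 cells, with a median of 2.063. Atf3 was at 14.48 times and Nr4a1 at 11.52 times (9.075 and 6.875 without those cells). Their part in the other ratios was not tested.

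The genes that separated the groups most surely, by the end of the interval nearest 1, included genes outside the lists. Thbs1, a matricellular protein that activates TGF-β, was at 2646 against 108.5 CPM, a ratio of 24.39 (12.29 to 56.8), and 14.56 (7.019 to 36.41) without the Myod1 cells. Procr, the endothelial protein C receptor, was at 3548 against 352.5 CPM, a ratio of 10.07 (6.811 to 15.52), with UMIs in 35 of 51 and 9 of 32 cells, and was at 6.215 (4.072 to 9.982) times without the Myod1 cells. Olfr78 had UMIs in 26 positive and 0 negative cells. Lower were Pmepa1, an inhibitor of TGF-β signalling (0.1187), Csf1, the macrophage growth factor (0.1213), and the nucleolar genes Ncl (0.3231) and Npm1 (0.3458). Of these, Pmepa1, Ncl and Npm1 were at 1.01, 1.137 and 0.952 times without the Myod1 cells, with intervals that include 1, and Csf1 was at 0.2619 (0.1275 to 0.5498). Hbb-bs, a haemoglobin gene, was at 0.01309 times, with most of its UMIs in 1 Myh11-negative cell.

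**Figure D4:**
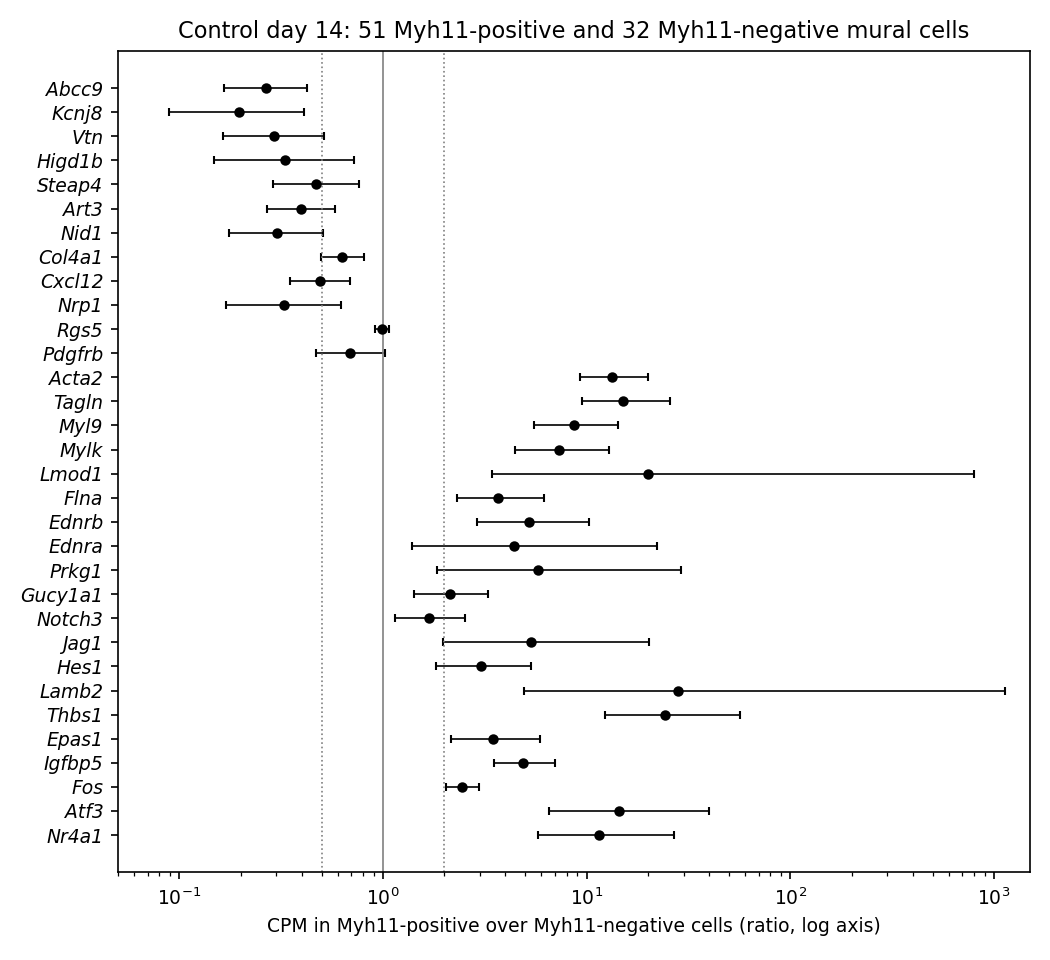
Ratio of CPM in 51 Myh11-positive over 32 Myh11-negative mural cells of the control day 14 library (x, log axis) for named genes (y), with exact 95% intervals as bars, a solid line at 1 and dotted lines at 2-fold either way. The pericyte genes shown lie left of 1, Rgs5 on it at 0.9878, and the contractile and tone genes shown right of it, with Tagln at 15.15. Ndufa4l2 (above 1) and Cox4i2 (below 1), pericyte-list genes not past 2-fold, are not shown. Without the Myod1 cells Rgs5 was at 0.6348.

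Across control libraries, day 14 and day 5 mural cells (102 and 21) were compared to follow the vessel wall from early repair to regrown muscle. Of 3073 genes, 12.1% were past 2-fold higher and 10.8% past 2-fold lower at day 14, and the median ratio was 0.9314. All 7 genes of the proliferation list that entered were past 2-fold lower at day 14, with a median ratio of 0.09963. Ube2c, which triggers mitotic exit, had 32 UMIs at day 5 and 0 at day 14. Top2a, which untangles chromosomes, was at 0.01224 (0.0003003 to 0.07345) times with 1 UMI at day 14, and Stmn1, a microtubule regulator, at 0.03162 times.

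Cells with Mki67, a marker of dividing cells, made up 6 of 21 mural cells at control day 5, or 28.57% (exact interval 11.28 to 52.18%), and 5 of 19 in the stricter set (26.32%, 9.147 to 51.2%). Each of those 5 held 15 to 18 of the 20 proliferation genes. At control day 14 no mural cell of 102 had Mki67, which allows a share of up to 2.941%. At control day 5 the share was 7.527% among endothelial cells, 30.97% among fibro-adipogenic cells and 14.29% among all other cells. The day 5 mural cells were deeper than those of day 14, with medians of 5013 and 2446 UMIs. With each mural cell thinned to 1000 UMIs, Mki67 was in 0 of 14 at day 5 and 0 of 91 at day 14, and thinned to 2000 UMIs in 3 of 15 and 0 of 62. With each cell thinned to 1000 UMIs, 5 of 16 stricter cells at day 5 kept at least 4 proliferation genes, against 0 of 71 at day 14. Thinned to 2000 UMIs, the counts were 5 of 14 and 1 of 42. In the hypothyroid day 5 library, 3 of 14 mural cells had Mki67 but none of the 5 in the stricter set, which allows up to 60%, so no difference between diets could be read.

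**Figure D5:**
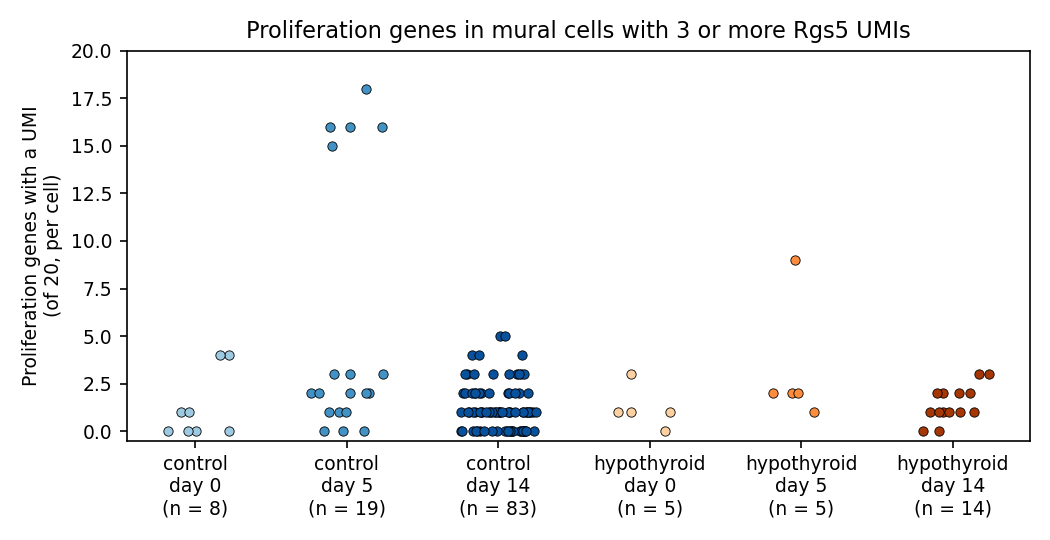
Number of 20 proliferation genes with a UMI (y) in each mural cell with at least 3 Rgs5 UMIs, by library (x), with points spread sideways at random. At control day 5, 5 of 19 cells lie at 15 to 18 genes, and no cell of the control day 14 library lies above 5.

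Contractile genes were partly higher at day 14, 5 of 21 past 2-fold higher and 1 lower, with a median of 1.503. Myh11 was at 559.9 CPM at day 5 and 2062 CPM at day 14, a ratio of 3.682 (2.926 to 4.688), and 2.538 in the stricter set. All other cells of the libraries had a Myh11 ratio of 5.625. Tpm2 was at 3.788 (3.152 to 4.587) times, Lmod1 at 2.831 and Tpm1 at 2.341 times, while Actn1 was at 0.4731 (0.3497 to 0.6418) times. Acta2 was at 1.402 times (1.096 in the stricter set), Rgs5 at 1.123, Notch3 at 1.375 and Pdgfrb at 0.7054 times. The pericyte list went both ways: Vtn (4.174, 1.684 to 13.36) and Art3 (2.445) were past 2-fold higher, and Higd1b (0.4378), Cox4i2 (0.415) and Steap4 (0.425) lower. Of the tone genes only Rgs16 (0.2277), a brake on G protein signalling, and Avpr1a (0.2688), the vasopressin receptor, were past 2-fold, both lower.

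Of 24 interstitial matrix genes, 9 were past 2-fold lower at day 14 and 2 higher, with a median of 0.804. The 2 higher, Fbn1 (2.32) and Timp2 (2.226), were at 0.5252 and 0.6802 times in the stricter set. Mgp, an inhibitor of calcification, was at 6809 CPM at day 5 and 1367 CPM at day 14, a ratio of 0.2007 (0.1801 to 0.2234), and 0.05806 in the stricter set, whereas in all other cells its ratio was 4.636. The direction of this value rested on 3 of the 21 day 5 cells, which held 902 of 985 Mgp UMIs. Without them the day 5 level was 734.6 CPM and the ratio 1.86 (1.473 to 2.374), higher at day 14. Bgn, a small proteoglycan, was at 0.3674 times, Serpinh1, the collagen chaperone, at 0.3656, Loxl1, a crosslinking enzyme, at 0.3202 and Postn, periostin, at 0.3871 times. Serpine2, a protease inhibitor, was at 0.2149 times, with UMIs in 19 of 21 cells at day 5 and 34 of 102 at day 14. Col1a1 was at 0.9977 over all members and at 0.1322 in the stricter set, so its value turned on the cells with 1 or 2 Rgs5 UMIs. At day 5, 2 cells gave 509 of its 599 UMIs, and without them the ratio was 5.517 (4.459 to 6.901). Col15a1, a basement membrane collagen, was at 0.218 times.

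Chemokines went the other way, 7 of 11 genes of the cytokine and adhesion list past 2-fold higher at day 14 and 3 lower. Ccl2, which recruits monocytes, was at 103.7 CPM at day 5 (15 UMIs) and 1868 CPM at day 14 (712 UMIs), a ratio of 18.01 (10.85 to 32.35), and 7.602 in the stricter set. Ccl7 was at 30.73 (10.39 to 150.1) times, 19.14 in the stricter set. Both were also higher in the other cells, at 3.476 and 3.347 times. The neutrophil attractant Cxcl1 was at 3.303 times and Csf1 at 3.76 times. Il6, a cytokine of inflammation and repair, was at 0.3337 (0.2403 to 0.4627) times, but at 1.275 with all columns of each file. Cxcl10, an interferon-induced chemokine, was at 0.2909 times and Ccl11, which attracts eosinophils, at 0.2919 times. So the chemokines did not move as 1 group.

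Genes of other cells moved with these results. All 9 muscle fiber genes that entered were past 2-fold higher at day 14, with a median of 30.73, as were 5 of 5 tenocyte genes (median 59.38) and 4 of 4 erythroid genes (194.7). Examples were Tnnt3 (63.68 times) and Ckm (54.7 times), which were at 11.37 and 12.69 times in the other cells. Of fibro-adipogenic genes 7 of 11 were past 2-fold higher over all members, with Dcn at 5.059 times, but Dcn was at 0.6717 times in the stricter set. Their part in the proliferation, matrix and chemokine values was not tested.

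At day 14, hypothyroid mural cells (15) and control mural cells (102) had like Rgs5 and differed in contractile and pericyte genes. With 15 cells on the hypothyroid side, values are given and genes past 2-fold are not counted. The median gene of 2425 had a hypothyroid over control ratio of 0.8337, against which the following ratios stand. With the genes of the rule left out, the contractile list had a median of 0.2882 over 20 genes, the shared mural list 0.5059 over 10 and the pericyte list 2.565 over 8. In the stricter set these medians were 0.5048 over 17, 0.6059 over 10 and 2.712 over 8, against 0.8076 over all genes.

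Acta2 was at 4168 CPM in control cells (1589 UMIs) and 270.5 CPM in hypothyroid cells (12 UMIs), a ratio of 0.0649 (0.03346 to 0.1137), and 0.08275 in the stricter set. The highest hypothyroid cell had 3 Acta2 UMIs and the highest control cell 198. Tagln had a ratio of 0.07619 (0.03643 to 0.1406). Myh11 was at 2062 and 293 CPM, a ratio of 0.1421 (0.07534 to 0.2445), and 0.2036 in the stricter set. Myl9 was at 0.05984, Mustn1 at 0.08537, Myl6, an essential myosin light chain, at 0.2345 and Mylk at 0.2556 times. These ratios are over all members. There, 14656 of the 44363 hypothyroid UMIs came from 1 cell with 1 Rgs5 UMI and a summed mural gene level of 1842 CPM. The other cells of the hypothyroid library were also lower for Acta2 (0.392), Tagln (0.1945), Myh11 (0.1574), Myl9 (0.1875) and Mylk (0.3038). Since other cells include the Rgs5-rich cells removed by the rule, contractile RNA was lower in the hypothyroid library beyond the members.

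The pericyte channel genes stood the other way. Kcnj8 was at 91.81 CPM in control (35 UMIs) and 383.2 CPM in hypothyroid mural cells (17 UMIs), a ratio of 4.174 (2.193 to 7.653), and in 17 of 102 and 9 of 15 cells. Abcc9 was at 217.7 and 901.7 CPM (83 and 40 UMIs), a ratio of 4.142 (2.766 to 6.11), in 38 of 102 and 11 of 15 cells. In the other cells these genes were at 0.7266 and 0.7745 times. In cells around the rule the control and hypothyroid levels were closer or in the opposite order. Among those removed by the exclusion genes, Kcnj8 stood at 112.6 CPM (control) and 118.8 CPM (hypothyroid), and Abcc9 at 264.7 and 284.3 CPM. In cells with at least 3 Rgs5 UMIs but neither Acta2 nor Notch3, Kcnj8 was at 359.7 and 205.8 CPM and Abcc9 at 1115 and 1183 CPM. Members that entered through Notch3 alone were 26 of 102 in the control and 8 of 15 in the hypothyroid library, and their part in these values was not tested. Kcnj8 (chr6:142510563-142517341) and Abcc9 (chr6:142533588-142648042, both mm39) are neighbours in the genome. Steap4 was at 3.171 times, Vtn at 3.125 times and Pdgfrb at 1.628 (1.017 to 2.51) times, with stricter ratios of 3.806, 3.304 and 1.862. Ndufa4l2 was at 0.5316 times. The hypothyroid day 14 mural cells thus had the highest Abcc9 and Kcnj8 levels of the 6 libraries, though the Kcnj8 interval (223.2 to 613.5 CPM) overlapped that of control day 0 (105.7 to 541.7 CPM).

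Differences between the diets were also present within the Myh11 groups. Among Myh11-negative cells of the stricter set (9 hypothyroid, 32 control), Abcc9 was at 2.741 (1.667 to 4.436), Kcnj8 at 2.367 (1.073 to 4.957), Steap4 at 2.475 (1.312 to 4.525) and Pdgfrb at 2.11 (1.176 to 3.666) times. In those cells Acta2 was at 0.4537 (0.0886 to 1.459), Tagln at 1.008 and Rgs5 at 1.062 times. The 9 hypothyroid cells, of which 1 carried Myod1 and was kept, were also set against the 26 control cells without Myod1. There Abcc9 was at 1.964 (1.158 to 3.307), Kcnj8 at 2.032 (0.8584 to 4.732), Steap4 at 1.707 (0.8771 to 3.256), Pdgfrb at 1.354 (0.7409 to 2.412) and Rgs5 at 0.6827 (0.5836 to 0.7958) times. Of the 4 higher genes only Abcc9 thus kept an interval above 1. Among Myh11-positive cells (5 and 51), Acta2 was at 0.09559 (0.03834 to 0.1976), Tagln at 0.06035 and Myl9 at 0.06341 times, with Abcc9 at 4.718 and Kcnj8 at 6.077 times. Lower Acta2, Tagln and Myl9 levels were therefore found in the Myh11-positive cells, of which the hypothyroid library had 5. Among Myh11-negative cells, against the 26 control cells without Myod1, Acta2 was at 0.2634 (0.05113 to 0.8558) times, from 3 UMIs against 27. Tagln there was at 0.5577 (0.1365 to 1.71) times. Acta2 is a gene of the rule, and against all 32 control cells its interval included 1. These counts therefore do not settle whether lower Acta2 extended beyond the Myh11-positive cells.

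Other genes that differed at day 14 were Timp3, an inhibitor of matrix proteases made by pericytes, at 2.215 (1.74 to 2.797) times and 0.785 in the other cells. Pdgfa, a growth factor ligand, was at 0.131 times, Id3, a target of bone morphogenetic proteins, at 0.1653 and Igfbp7 at 0.2776 times. Among Notch genes Hes1 was at 1.584 times, and Nrarp had 0 UMIs against 49 in control cells. Procr had 0 UMIs in 15 hypothyroid cells and 757 UMIs in 50 of 102 control cells, a ratio of 0 with an interval up to 0.04198, against 1.17 in the other cells.

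Interstitial matrix genes had a median of 0.2351 over 22 genes, but rested in part on the 19 control cells with 1 or 2 Rgs5 UMIs. Col1a1 was at 0.01091 (0.00132 to 0.03949) times with 2 UMIs against 1575, and at 0.09178 in the stricter set. Col3a1 and Col1a2 were at 0.03166 and 0.06187 times, and at 0.2176 and 0.3982 in the stricter set. Conversely Lyz2 and Cd74, macrophage genes, came in the hypothyroid library from 1 cell of 14656 UMIs with 1 Rgs5 UMI, which also held 9 of 11 immune markers. Apoe, a lipid carrier, was at 99.9 times with that cell and 2.674 (1.206 to 5.352) times without it, and Fth1, ferritin, at 3.642 with it and 0.8067 (0.6192 to 1.035) without it.

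In the day 0 libraries (6 hypothyroid and 8 control cells) and the hypothyroid day 5 library the counts allow little. At day 0, S100a6, a calcium-binding protein, was at 24.93 (9.184 to 94.86) times in hypothyroid cells and Tmsb4x, which binds free actin, at 13.37 (9.033 to 20.46) times. Tagln was at 5.848 times, with 90.87% of its UMIs in 1 hypothyroid cell. Thbs1 was at 0.02669 (0.003201 to 0.09822) times, but 1 control cell gave 91.49% of its UMIs there, and without that cell the ratio was 0.2024 (0.022 to 0.9091). At day 5, Abcc9 had 0 UMIs in 14 hypothyroid cells against 54 in 21 control cells. It also had 0 in the 5 hypothyroid cells of the stricter set, a ratio of 0 with an interval up to 0.1402. Of those 5 cells, 1 held 40071 of their 48258 UMIs and had UMIs of 6 of 8 myogenic genes. Stricter levels and ratios of the hypothyroid day 5 library therefore rest mostly on that cell. Mgp was at 0.03275 times and Il6 at 0.00827 times. Of the 985 control Mgp UMIs, 3 cells held 902, and without them the control level was 734.6 CPM, against 223 CPM in hypothyroid cells. In the other cells of the day 5 libraries Abcc9 was at 0.1226, Mgp at 1.402 and Il6 at 1.318 times. With the genes of the rule left out, the shared mural list had a median of 0.1502 over 9 genes and the pericyte list 0.01988 over 4 at day 5, and both include the 9 hypothyroid cells with 1 or 2 Rgs5 UMIs. In the stricter set these medians were 0.4003 over 8 and 0.03098 over 4. Ccl2 was at 17.66 times over all members and 0.2203 in the stricter set.

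Between control day 0 and day 5 (8 and 21 cells), the matrix genes named here were higher after injury, with most of their UMIs in a few cells. Col1a1 was at 55.12 times, and at 9.969 (2.681 to 83.58) without the 2 day 5 cells that held 509 of its 599 UMIs. Mgp was at 25.9 times, and at 2.794 (1.298 to 7.165) without the 3 cells that held 902 of its 985. Col1a2 had 319 UMIs at day 5, 263 of them in 3 cells, and 0 at day 0. The interstitial matrix list had a median of 11.41 over 21 genes and the basement membrane list 3.354 over 9. Tubb5, a tubulin of growing cells, had 179 UMIs against 0. Acta1, the actin of muscle fibers, was at 0.02711 times and Ckm at 0.01972 times. With 8 cells at day 0 these values describe those cells.

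Procr was lower in hypothyroid than in control mural cells at each time point, with 1 library per condition. It was at 5934, 1065 and 1986 CPM in control mural cells at days 0, 5 and 14, in 2 of 8, 11 of 21 and 50 of 102 cells. In hypothyroid mural cells it had 0 UMIs at day 0 (which allows up to 212 CPM), 1 UMI at day 5 (4.745 CPM) and 0 at day 14 (up to 67.62 CPM). It was found in 0 of 6, 1 of 14 and 0 of 15 cells. Every control value thus lay above every hypothyroid value. Of the 14 hypothyroid day 5 cells, 9 had 1 or 2 Rgs5 UMIs, and 1 of the other 5 held 40071 of their 48258 UMIs. In fibro-adipogenic cells Procr was at 613.7, 291.8 and 717.6 CPM in control and 850.2, 356.0 and 942.7 CPM in hypothyroid libraries, so it was present under both diets there. In endothelial cells it was at 185.1, 216.6 and 157.2 CPM in control and 226.2, 99.54 and 109.9 CPM in hypothyroid libraries. In the control day 0 library 1 cell gave 62.03% of the mural Procr. Since Procr at control day 14 was 10.07 times higher in Myh11-positive cells (6.215 without the Myod1 cells), its level also moved with that group, of which the hypothyroid day 14 library had 5 cells.

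Genes of thyroid hormone action were low and gave few values. Thra, the main thyroid hormone receptor gene of muscle, was at 37.56, 110.6 and 152.1 CPM in control and 282.7, 47.45 and 112.7 CPM in hypothyroid mural cells, from 1 to 58 UMIs. Thrb, the second receptor gene, had 0, 2 and 6 UMIs in control and none in hypothyroid mural cells. Dio2, which activates thyroid hormone, had 14 UMIs at control day 14 and 0 to 2 elsewhere. None of the 14 was in the 51 Myh11-positive cells or the 26 Myh11-negative cells without Myod1 of the stricter set. All 14 thus came from cells that carried Myod1 or had 1 or 2 Rgs5 UMIs. Klf9, a direct target of the hormone that stress hormones also induce, was at 1315, 691.3 and 813.1 CPM in control and 141.3, 123.4 and 383.2 CPM in hypothyroid mural cells. Its highest hypothyroid level thus lay below its lowest control level. At day 14 its ratio was 0.4713 (0.271 to 0.767), and 0.6253 (0.3585 to 1.022) in the stricter set, whose interval includes 1. At control day 14 Klf9 was also 2.62 (1.793 to 3.951) times higher in Myh11-positive than in Myh11-negative cells (1.697, 1.119 to 2.681, without the Myod1 cells), so the mix of cells and the diet cannot be told apart for it.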

How the data were processed

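The 10x 3' libraries were aligned and counted by the authors with Cell Ranger against mm39 and exported from Partek Flow, tools named in the submitters' processing notes. The deposited values are log2(CPM + 1) per cell, on the log2 scale, for 12436 genes with their positions. Undoing the log gave totals of 999974.7 to 1000027.6 per cell, and the smallest step of a cell is worth 1 UMI: 99.934% of 39334018 values above 0 came out as whole UMIs, and all results rest on these recovered UMIs. Of 20269 columns, only the first run of barcodes in each file was used outside the alternative with all columns, since later columns name no sample.

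UMIs were summed over mural cells per library and divided by the summed totals (CPM). Levels have exact Poisson intervals, ratios exact intervals from the binomial, and shares Clopper-Pearson intervals, at 95%. A count of 0 allows up to 3 counts. Genes entered a comparison with at least 30 UMIs over both sums; past 2-fold is a rule of size with no test, counted where both sides had at least 20 cells. Reads of near-identical genes, such as the actins Acta1 and Acta2 or the haemoglobin copies, may be split by the authors' counting. The members and lists were chosen with earlier results of these data known. Named were the rule genes and the shared mural, pericyte and contractile lists; per comparison, 5 genes each way by the interval end nearest 1, with at least 50 UMIs in the higher sum and in 25% of its cells; and up to 4 genes past 2-fold per list with those that define it. Others were chosen after their values were seen, such as Klf9 and Procr across all libraries. Promoters were the 300 bases before the GENCODE canonical start in mm39. Alternatives were all columns, stricter rules, thinning to 1000 or 2000 UMIs, other scalings and filters; those of the Myh11 split, the Mki67 thinning, the rule without exclusion genes, the values without a few cells and the list medians without the genes of the rule were chosen after seeing the data. Scripts were tested on simulated data. Python 3.11.15, numpy 2.4.6, scipy 1.17.1, pandas 2.3.3 and matplotlib 3.10.9 were used.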

Additional observations from a re-analysis of the deposited data

Results flagged for a closer look

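Columns outside the analysed runs also held cells that meet the mural rule. The later columns of the control day 5 file held 76 such cells, those of the control day 14 file 36 and those of the hypothyroid day 5 file 13, none of which is in any first run. Their condition is not known, and they were left out of every comparison except the alternative with all columns. That alternative counted them with the library of their file.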

How the results depend on the processing

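With 1 library per condition no value has a replicate, depth differs between libraries and the mural cells of 4 libraries number 15 or fewer, which limits every comparison that uses them. No paired analysis was possible because there was 1 library per condition. The hypothyroid over control share at day 5 was 0.3136 with all columns, 0.2965 with at least 3 Rgs5 UMIs, 0.2451 and 0.3339 after thinning to 1000 and 2000 UMIs, and 0.2817 with at least 10 Rgs5 UMIs and no exclusion genes, against 0.7511. At day 14 it was 0.1566 with Acta2 and Notch3 both required and 0.5371 without exclusion genes, and below 1 in all alternatives. The share with Myh11 at control day 14 was 82.35% with both genes, 69.35% thinned to 2000 UMIs and 66.82% without exclusion genes. With both genes it was 100% at hypothyroid day 0 and 75% at hypothyroid day 14. At hypothyroid day 5 it was 60% with at least 3 Rgs5 UMIs, 66.67% thinned to 1000 and 55.56% without exclusion genes. Between control day 14 and day 5, 169 genes were higher with all columns, 138 higher and 61 lower with at least 100 UMIs, 1077 and 2093 with no filter, and 508 lower by the mean over cells. Median-ratio scaling, which sets the median gene's log2 ratio of −0.1085 to 0, gave 442 higher and 276 lower. For the Myh11 split, 46 were higher and 22 lower after thinning, from 396 that entered, and 252 lower over all members. Values that turned direction between control day 14 and day 5 were Il6 (1.275, all columns), Mgp (1.86, without 3 day 5 cells) and, with at least 3 Rgs5 UMIs and with both genes, Fbn1 (0.5252, 0.5175), Timp2 (0.6802, 0.6438) and Dcn (0.6717, 0.6988). Between diets at day 14 they were, with both genes, Fth1 (0.4485, and 0.8067 without 1 cell) and H2-D1 (0.5669), and in both settings Prdx1 (0.7932, 0), Cd74 (0, 0) and Lyz2 (0, 0). With at least 3 Rgs5 UMIs they were Ccl2 between diets at day 5 (0.2203) and Col1a1 between hypothyroid day 14 and day 5 (3.249). In the thinned split they were Vtn (1.296) and Gucy1a1 (0.8102). The cause was not tested. Of the other values of named genes, 233 stayed close and 112 moved without turning for control day 14 over day 5, 177 and 40 for diet at day 14, and 215 and 79 for the split.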

Other observations

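Cells with at least 3 UMIs each of Myh11 and Acta2, a count of smooth muscle that does not need Rgs5, numbered 16, 16 and 97 in the control libraries at days 0, 5 and 14 and 6, 4 and 8 in the hypothyroid ones. Of these 147 cells, 53 were members and 20 had no Rgs5 UMI. The larger number in the control day 14 library was thus present under this count too.

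Olfr78 had UMIs in mural cells of all 6 libraries. It was at 112.7, 110.6 and 196.7 CPM in control and at 494.7, 4.745 and 202.9 CPM in hypothyroid mural cells, and at 4.938 CPM in endothelial and 1.353 CPM in fibro-adipogenic cells of the control day 14 library.

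Vcam1, an adhesion molecule, had 58 UMIs in 2 Myh11-negative cells against 2 UMIs in Myh11-positive cells. Both of those negative cells carried Myod1, and the Myh11-negative cells without Myod1 had 0 Vcam1 UMIs.

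Among 83 stricter mural cells of the control day 14 library, the Spearman correlation of the summed contractile and pericyte levels was −0.165. It was −0.52 among 19 cells at control day 5 and −0.38 among 14 at hypothyroid day 14. The points of each value share 1 library and a total, and the correlation of the pericyte level with the cell's UMIs was −0.447, −0.268 and −0.314 in the same order of libraries.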
